A study of Rattus norvegicus with 12 samples.

Results

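The 8 genes *Tgfb1i1*, *Actn1*, *Clic5*, *Tnc*, *Ogn*, *Pcolce*, *Il1rl1* and *Krt7*, most of them genes of matrix, adhesion and cytoskeleton, were followed through a menthol and Wnt3a experiment in ND7/23 cells. They were chosen because they were lower with menthol than in control cells by less than 2-fold, so that difference is given as a description, without a test. They are 8 of 21556 genes in the table, and all 8 were among the 11451 tested genes, whose FPKM (fragment count divided by gene length and by the mapped total of the library) averaged 0.5 or more. ND7/23 cells, a model of sensory neurons, descend from a fusion of rat dorsal root ganglion neurons with the mouse neuroblastoma N18Tg2. RNA was sequenced from 4 groups of 3 libraries: control cells without either agent, cells given 100 μM menthol, cells given 100 ng/ml Wnt3a, and cells given both together, each for 6 h. Menthol is an agonist of the cold-sensing channel TRPM8, Wnt3a activates Wnt/β-catenin signaling, and the design asks how each agent alone and the combination alter transcripts. All groups share the hybrid background, and reads were aligned to a rat genome. The vehicle of either agent and any prior differentiation of the sequenced cells are not given in the labels. The paper's methods, under its animal work, name DMSO as the solvent of the menthol stock. Whether cells without menthol received DMSO is not stated. The labels do not say whether the 3 libraries of a group came from separate cultures (the methods speak of biological duplication without more detail), so the p-values measure the spread between these libraries, which may in part be technical.

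The products of these genes work at the contact between a cell and its surroundings. Matrix proteins are secreted, processed and assembled outside the cell, integrins bind them, and focal adhesions tie integrins to actin filaments, which pull on the matrix in turn. Fibroblasts and smooth muscle cells are the usual source of such transcripts, and both TGF-β signaling and the serum response factor SRF are known regulators of them. *Tgfb1i1* encodes Hic-5, a LIM-domain relative of paxillin, *Actn1* the actin crosslinker α-actinin-1, and *Clic5* a chloride intracellular channel protein that binds the cortical actin cytoskeleton. *Tnc* (tenascin-C), *Ogn* (osteoglycin, a small leucine-rich proteoglycan) and *Pcolce* (an enhancer of procollagen C-proteinase) are matrix or matrix-processing proteins. *Il1rl1* encodes ST2, the receptor of interleukin-33, and *Krt7* is a keratin of simple epithelia, so neither is a gene of connective tissue alone.

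The promoters of the 3 genes that passed the adjusted p for both agents against Wnt3a (*Tgfb1i1*, *Ogn* and *Il1rl1*), and that of *Tnc*, are shown to let their base composition and motifs be read directly. *Tnc* was below control with each agent, but so were *Actn1*, *Clic5* and *Il1rl1*. Among the 7 genes matched below, only *Tnc* and *Ogn* held a motif match, so the promoters left out are free of matches. The sequences are the 250 bases before the annotated start, 5′ to 3′ on the strand of the gene, from RefSeq on build GRCr8, which is not the build that the submitters' processing notes name (mRatBN7.2). The genes were matched by NCBI gene number, and 7 of the 8 matched. Capitals mark a motif match.
*Tgfb1i1* (chr1:192258856-192259105, plus strand): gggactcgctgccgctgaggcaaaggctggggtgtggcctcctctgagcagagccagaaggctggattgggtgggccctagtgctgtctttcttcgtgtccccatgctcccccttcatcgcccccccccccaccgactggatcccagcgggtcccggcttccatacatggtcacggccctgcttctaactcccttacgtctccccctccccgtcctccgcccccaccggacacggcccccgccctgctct
*Ogn* (chr17:15258996-15259245, minus strand): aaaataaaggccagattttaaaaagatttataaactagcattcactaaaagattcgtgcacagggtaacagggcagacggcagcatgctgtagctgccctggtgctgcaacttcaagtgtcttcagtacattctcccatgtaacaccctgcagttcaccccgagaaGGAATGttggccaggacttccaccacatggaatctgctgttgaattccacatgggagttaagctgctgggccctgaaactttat
*Il1rl1* (chr9:50203388-50203637, plus strand): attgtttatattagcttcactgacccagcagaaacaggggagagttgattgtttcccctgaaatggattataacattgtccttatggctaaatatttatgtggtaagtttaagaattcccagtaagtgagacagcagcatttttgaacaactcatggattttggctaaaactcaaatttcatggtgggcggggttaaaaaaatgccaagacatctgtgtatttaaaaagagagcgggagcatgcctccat
*Tnc* (chr5:82476132-82476381, minus strand): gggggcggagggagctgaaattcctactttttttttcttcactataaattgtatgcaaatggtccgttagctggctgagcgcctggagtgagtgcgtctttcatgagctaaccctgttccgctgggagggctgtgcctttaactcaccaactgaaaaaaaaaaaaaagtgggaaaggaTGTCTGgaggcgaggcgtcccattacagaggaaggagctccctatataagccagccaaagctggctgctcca
Motifs were searched on both strands of the 300 bases from 250 before to 50 after the start. GGAATG, the site of TEAD factors, was found in *Ogn* alone among the 7, at −84 to −79 counted from the first transcribed base, and in 14.2% of all 33469 promoters. CAGACA, a SMAD site, was found in *Tnc* alone, at −72 to −67 on the opposite strand (written TGTCTG above), and in 21.1% of all promoters. TGANTCA (AP-1), CTTTGAT (TCF/LEF) and the CArG box of SRF were in none of the 7, and in 7.33%, 3.63% and 1.64% of all promoters. GC content of the 300 bases was 68.3% in *Tgfb1i1*, 52.3% in *Tnc*, 46.0% in *Ogn* and 42.0% in *Il1rl1*, beside a median of 51.7%. Such matches describe letters, not binding, and no motif was shared among the 7.

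Each library held 36914722 to 38837023 reads on genes, recovered as whole numbers from the steps in the FPKM values, so that 3 reads, taken as the floor, amount to 0.0772 to 0.0813 FPKM for a 1 kb gene. The lowest count of any of the 8 genes in any library was 864 reads (*Krt7*) and the highest 62727 (*Il1rl1*), so none of them was near this floor. Of the fibroblast markers, *Thy1* (141.1 FPKM over all libraries) and *Col1a2* (114.6) were abundant, but *Dcn*, *Lum* and *Postn* averaged 0.194, 0.0886 and 0.176 FPKM and *Fap* was at or under 3 reads on average. Of the sensory neuron markers, *Uchl1* (101.5 FPKM) and *Isl1* (13.2) were present, and *Calca*, *Prph*, *Pou4f1*, *Scn9a*, *Scn10a* and *Tubb3* averaged 3 reads or fewer. These markers, abundant in part and near 0 in part, give no cell type name to the libraries, and stromal is used here of genes that connective tissue is known for. The summed FPKM of the 11 fibroblast markers moved with the 8 genes: it was 343.6 to 358.6 in control, 321.6 to 324.3 with menthol, 327.2 to 332.5 with Wnt3a, and 312.9 to 321.0 in the combination group. In bulk RNA, fewer cells of a type and less RNA per cell cannot be told apart, and the part of this shift in the results was not tested.

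*Tgfb1i1*, which carries signals between focal adhesions and the nucleus, measured 35.87, 34.09 and 34.69 FPKM in the 3 control libraries. It measured 26.87, 28.90 and 24.94 with menthol, 35.73, 36.16 and 32.18 with Wnt3a, and 26.05, 25.30 and 25.95 with both. All 6 libraries with menthol were below all 6 without it, while control and Wnt3a libraries overlapped, and so did menthol and combination libraries. The means were 34.9 ± 0.905, 26.9 ± 1.98, 34.7 ± 2.19 and 25.8 ± 0.406 FPKM (SD, n = 3) in that order. Menthol libraries were 22.9% lower than control, the comparison that chose the gene. The combination was 25.7% lower than Wnt3a alone, which is a log2 fold change of −0.43 (SE 0.053, 95% interval −0.540 to −0.311, limma adjusted p = 0.00963).

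*Actn1*, which bundles actin filaments and anchors them at focal adhesions, was at 66.24, 64.35 and 65.62 FPKM in control and at 59.08, 57.34 and 56.53 with menthol. Wnt3a libraries had 59.05, 57.41 and 59.11 FPKM, and those with both agents 56.94, 54.95 and 54.48. Control stood above each of the other 3 groups without overlap, and the menthol libraries overlapped those of the Wnt3a and the combination groups. The combination lay 5.24% under Wnt3a alone (log2 fold change −0.08, SE 0.030, 95% interval −0.142 to −0.014), and the limma adjusted p of 0.263 missed the threshold. The related crosslinker *Actn4*, the most abundant gene of the focal adhesion list, measured 298.8 ± 4.27 FPKM in control and 280.9 ± 10.8 in menthol libraries, 289.0 ± 4.77 in Wnt3a libraries and 285.2 ± 6.66 in combination libraries, and passed in neither comparison of menthol (adjusted p = 0.388 and 0.820).

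*Clic5*, a link between the plasma membrane and ezrin-type proteins of actin-based protrusions, gave 40.44, 42.11 and 39.92 FPKM in control. Menthol libraries gave 32.43, 34.48 and 34.20, Wnt3a libraries 37.01, 37.36 and 38.39, and libraries with both 33.43, 33.78 and 33.79. The order was control, then Wnt3a, then the menthol and combination groups, which overlapped each other while all other steps were apart. Both groups given menthol averaged 33.7 FPKM (SD 1.11 with menthol and 0.203 with both). The combination was 10.4% lower than Wnt3a alone (log2 fold change −0.16, SE 0.034, 95% interval −0.231 to −0.086), with a limma adjusted p of 0.0836 that missed the threshold.

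*Tnc*, a matrix glycoprotein made in wounds and in developing tissue that loosens cell adhesion, had the widest relative range of group means. Control libraries measured 105.5, 98.15 and 97.42 FPKM, menthol libraries 87.38, 76.54 and 76.91, Wnt3a libraries 82.18, 78.97 and 85.68, and libraries with both 74.60, 67.92 and 67.09. Menthol and Wnt3a libraries overlapped each other, all of them lay below control, and all libraries with both lay below either agent alone. The means were 100.3 ± 4.45 FPKM in control, 80.3 ± 6.15 in menthol libraries, 82.3 ± 3.36 in Wnt3a libraries and 69.9 ± 4.11 in combination libraries, the last 30.4% under control. Against Wnt3a alone, the combination was 15.1% lower (log2 fold change −0.24, SE 0.055, 95% interval −0.355 to −0.117), with a limma adjusted p of 0.0996.

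*Ogn*, a proteoglycan that binds collagen fibrils, stood at 15.45, 15.51 and 14.97 FPKM in control and at 12.92, 11.88 and 11.79 with menthol. It stood at 15.65, 16.08 and 14.07 with Wnt3a and at 11.77, 11.89 and 11.60 with both. As for *Tgfb1i1*, the 6 libraries with menthol lay below the 6 without it, and Wnt3a made no separation on either side. The menthol mean was 20.3% under control. The combination mean of 11.8 ± 0.145 FPKM was 23.0% under the Wnt3a mean of 15.3 ± 1.06 (log2 fold change −0.37, SE 0.053, 95% interval −0.485 to −0.259, limma adjusted p = 0.0143).

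*Pcolce*, which speeds the removal of the C-propeptide that lets procollagen assemble, had the highest level per length of the 8 genes. Its control libraries measured 245.2, 247.9 and 242.6 FPKM, its menthol libraries 220.1, 221.9 and 222.1, its Wnt3a libraries 236.7, 243.2 and 239.9, and its libraries with both 226.2, 222.5 and 226.9. Control and Wnt3a overlapped at the top, and the combination lay just above menthol alone without overlap. Its spread was the smallest, with a pooled coefficient of variation of 1.04% beside 0.857% from counting alone. The combination was 6.14% lower than Wnt3a alone (log2 fold change −0.09, SE 0.023, 95% interval −0.140 to −0.042), and the limma adjusted p of 0.124 missed the threshold.

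*Il1rl1*, through which interleukin-33 signals, measured 136.7, 142.9 and 148.0 FPKM in control and 125.6, 121.1 and 121.2 with menthol. It measured 133.5, 133.9 and 125.3 with Wnt3a and 103.7, 110.3 and 105.2 with both. Libraries with both agents were below all others, Wnt3a and menthol libraries overlapped, and control was above each. The menthol mean was 13.9% lower than control. The combination mean of 106.4 ± 3.44 FPKM was 18.7% lower than the Wnt3a mean of 130.9 ± 4.86 (log2 fold change −0.30, SE 0.037, 95% interval −0.378 to −0.219, limma adjusted p = 0.00963). Its ligand *Il33* averaged 25.9 ± 1.70, 24.4 ± 0.923, 30.6 ± 0.326 and 27.9 ± 0.427 FPKM in the control, menthol, Wnt3a and combination groups, and its co-receptor *Il1rap* 2.83 ± 0.0399, 2.61 ± 0.149, 2.85 ± 0.0595 and 2.69 ± 0.0649. Neither passed in a comparison of menthol (adjusted p = 0.586 and 0.218 for *Il33*, 0.670 and 0.657 for *Il1rap*).

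*Krt7*, an intermediate filament protein, had the lowest mean of the 8 in control, where its range overlapped that of *Ogn*, and the largest relative spread. Control libraries gave 14.73, 13.21 and 15.97 FPKM, menthol libraries 11.66, 10.71 and 10.80, Wnt3a libraries 14.84, 15.11 and 14.75, and libraries with both 13.07, 12.12 and 11.99. Wnt3a libraries lay inside the control range, and those with both lay between menthol alone and control without overlap. The menthol mean was 24.5% lower than control. The combination was 16.8% lower than Wnt3a alone (log2 fold change −0.27, SE 0.062, 95% interval −0.399 to −0.131), with a limma adjusted p of 0.0997. Of other epithelial markers, *Cldn4* averaged 25.2 FPKM and *Krt8*, a keratin of the same epithelia, 2.19, and *Krt18*, *Krt19* and *Cldn7* averaged 3 reads or fewer. The summed epithelial markers, most of it *Cldn4*, ran from 27.3 to 28.3 FPKM in control and 22.75 to 27.22 with menthol. They ran from 29.36 to 29.96 with Wnt3a and 26.35 to 28.46 with both, a shift that was not tested.

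**Figure D1:**
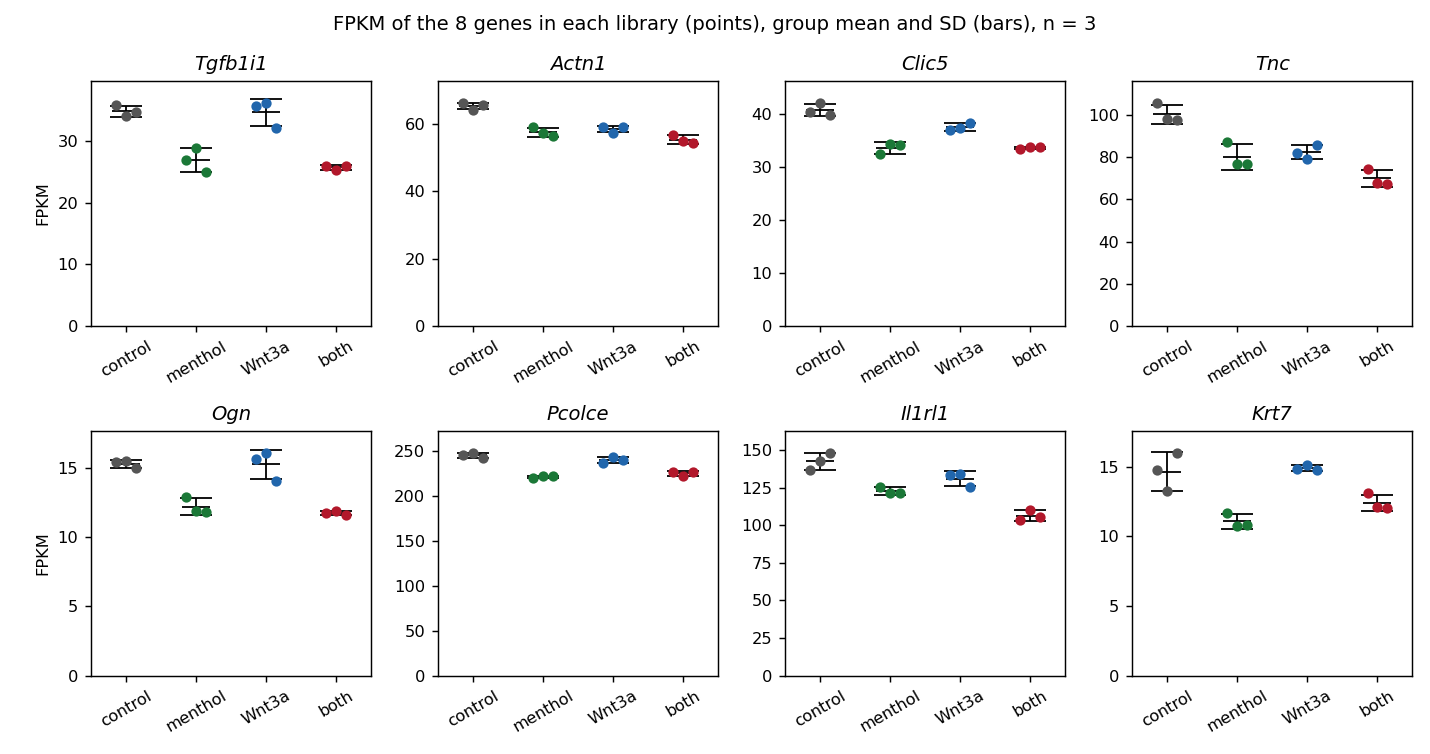
FPKM (vertical axes from 0, one scale per gene) of the 8 genes in the 4 groups named on the horizontal axes, with 1 point per library and bars for the group mean and SD (n = 3). In each panel the menthol points lie below the control points and the points with both agents lie below the Wnt3a points, while Wnt3a and control points overlap for *Tgfb1i1*, *Ogn*, *Pcolce* and *Krt7*.

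The comparison of both agents with Wnt3a alone asks whether menthol made a difference in cells that also received Wnt3a. Its difference comes from 6 libraries outside the menthol against control difference that the choice names. The spread it was tested against came from all 12, the control and menthol libraries included. The 8 genes also passed menthol against control in that shared fit, and they were chosen with earlier results of these data known. The counts below are therefore not independent of the choice. *Tgfb1i1*, *Ogn* and *Il1rl1* fell, by 25.7%, 23.0% and 18.7%. The other 5 were lower by 5.24% (*Actn1*) to 16.8% (*Krt7*) with adjusted p from 0.0836 to 0.263. Thus 3 of the 8 passed an adjusted p of 0.05, beside 0.0524% of all genes tested (6 of 11451, all of them lower), and 8 of 8 were lower at an unadjusted p under 0.05, beside 7.37% of all genes. The 3 libraries with both agents lay below the 3 with Wnt3a for 8 of 8 genes, beside 8.57% of all genes. The median log2 fold change was −0.25 for the 8 genes and −0.002 for all genes. The other genes called, chosen after their values were seen, were *Tm4sf1*, a membrane protein of the L6 family (11.5 ± 0.257 to 8.60 ± 0.661 FPKM, adjusted p = 0.0143), *LOC290595* (22.2 ± 1.81 to 15.3 ± 1.25, adjusted p = 0.0143) and *Eno3*, the muscle enolase (25.1 ± 0.678 to 20.6 ± 1.03, adjusted p = 0.0253). With only the 6 libraries compared in the fit, none of the 8 passed the adjusted p (0.0668 for *Tgfb1i1*, 0.0869 for *Il1rl1* and 0.108 for *Ogn* by limma). In that fit 8 of 8 were lower at an unadjusted p under 0.05, beside 6.5% of all genes. Its spread is not independent of the choice either, since these libraries entered the fit of all 12 in which the 8 genes passed menthol against control. Without Wnt3a replicate 1 the same 3 genes had an adjusted p of 0.0743, 0.0743 and 0.0987, and without Wnt3a replicate 2 each had 0.0998. Over all alternatives the adjusted p ranged from 3.49e-05 to 0.0998 for *Tgfb1i1*, 2.3e-06 to 0.0998 for *Il1rl1* and 0.00134 to 0.108 for *Ogn*, and the log2 fold change of all 8 stayed below 0 in each of the 20 alternative fits.

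**Figure D2:**
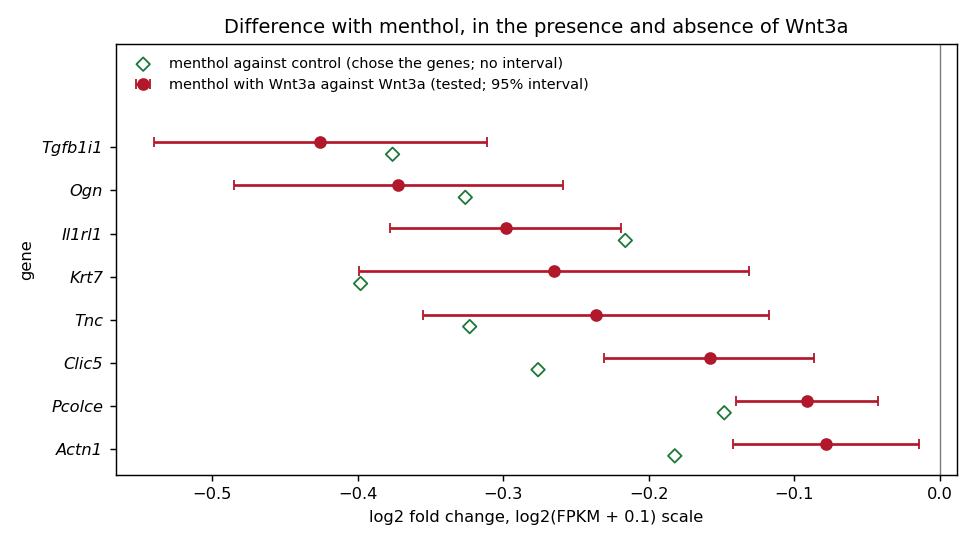
Log2 fold change on the log2(FPKM + 0.1) scale (horizontal axis) for each gene (vertical axis), for menthol against control as open diamonds without interval, since this comparison chose the genes, and for both agents against Wnt3a as filled points with the 95% interval from limma. The filled points run from −0.43 for *Tgfb1i1* to −0.08 for *Actn1*, and no interval, unadjusted for the number of genes, reaches 0.

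Menthol against control chose the genes, so its values are listed only to place them. The log2 fold changes ran from −0.40 (*Krt7*) to −0.15 (*Pcolce*) with a median of −0.30, beside −0.002 over all genes. The 3 menthol libraries lay below the 3 control libraries for 8 of 8, as they did for 8.38% of all genes. Of all genes, 0.105% passed in either direction (12 of 11451), a share that holds the chosen genes and from which nothing is read. Ranked by p among the lower genes of this comparison, not by fold, *Tnc* (100.3 ± 4.45 to 80.3 ± 6.15 FPKM) and *Il1rl1* (142.5 ± 5.65 to 122.6 ± 2.55) came last in the set. Next in that ranking, past the adjusted p threshold, were the actin crosslinker *Flna* (175.9 ± 2.44 to 152.3 ± 3.91 FPKM), the endocytic adaptor *Dab2* (62.7 ± 1.26 to 56.3 ± 1.03) and the ubiquitin ligase gene *Fbxo32* (0.871 ± 0.0634 to 0.388 ± 0.0294). *Eno3* (24.3 ± 0.928 to 19.3 ± 0.304 FPKM) and *Aldh3a1*, an aldehyde dehydrogenase (33.3 ± 2.31 to 22.5 ± 0.741), also passed on the lower side and are not in the set.

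Comparisons that use the control or menthol libraries share them with the choice of genes and were left untested. With Wnt3a alone, *Tnc*, *Actn1*, *Clic5* and *Il1rl1* were below control in all 3 libraries (4 of 8, beside 10.1% of all genes), with log2 fold changes of −0.29, −0.16, −0.12 and −0.12. The other 4 overlapped control, with log2 fold changes of −0.01 for *Tgfb1i1*, −0.006 for *Ogn*, −0.03 for *Pcolce* and 0.03 for *Krt7*. Adding Wnt3a to menthol left *Tgfb1i1*, *Actn1*, *Clic5* and *Ogn* overlapping with menthol alone. It went with lower values of *Tnc* (log2 fold change −0.20) and *Il1rl1* (−0.21) in all 3 libraries (2 of 8, beside 5.31% of all genes), and with higher values of *Krt7* (0.16) and *Pcolce* (0.03). Against control, the combination was lower in all 3 libraries for 8 of 8 (beside 9.98% of all genes), with a median log2 fold change of −0.33 and the lowest value, −0.52, in *Tnc*. The difference with menthol in the presence of Wnt3a minus that in its absence ran from −0.08 (*Il1rl1*) to 0.13 (*Krt7*) on the log2 scale, and whether it departs from 0 was not tested, because it holds the libraries that chose the genes.

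Genes of the same families were examined next, by lists of names. The lists were drawn up around the 8 genes with earlier results of these data known. Their menthol against control values come from the libraries that chose those genes, so an excess there is not independent support. Counts of genes lower and higher on the lists go by the sign of the log2 fold change, however small. Of 78 tested genes on 8 lists, 66 were lower and 12 higher in menthol against control, with a median of −0.07. Thus 84.6% were below 0, beside 50.9% of all genes, but some of these, such as *Tpm2*, were level. None passed the adjusted p by limma. At an unadjusted p under 0.05, 25 were lower (32.1%, beside 4.82% of all genes) and 1 higher, and limma voom on the recovered reads called 6 lower (beside 0.41% of all genes). With both agents against Wnt3a, 45 were lower and 33 higher, the median was −0.02, 57.7% were below 0, beside 50.7% of all genes, and none passed by limma. At an unadjusted p under 0.05, 18 were lower (23.1%, beside 7.37% of all genes) and 6 higher, and voom called 2 lower, *Tagln* and *Tpm4* (beside 0.437% of all genes). The difference between the 2 comparisons was not tested. The fibroblast marker sum given above was also lower with menthol in both comparisons. With both agents against Wnt3a, *Col1a2* (115.2 ± 2.51 to 109.7 ± 0.164 FPKM) and *Thy1* (143.4 ± 4.61 to 137.2 ± 2.85) made up nearly all of that difference, while *Fn1* stood at 51.4 ± 3.77 and 51.8 ± 2.90 and *Pdgfrb* at 3.04 ± 0.261 and 3.31 ± 0.281. *Fn1*, fibronectin, is the 1 tested gene that both it and these lists hold.

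The contractile and SRF-regulated list had the lowest median in the second comparison. Its 11 tested genes had a log2 fold change below 0 in 11 of 11 cases with menthol against control (median −0.12). Of these, *Tpm2* (219.1 ± 2.09 FPKM in control and 219.2 ± 13.3 with menthol) and *Mrtfa* (7.31 ± 0.198 and 7.31 ± 0.558) were level. With both agents against Wnt3a, 8 were lower and 3 higher (median −0.11). At an unadjusted p under 0.05, 8 of these 11 were lower, beside 7.37% of all genes, and 2 were higher, the SRF coactivator genes *Mrtfa* and *Mrtfb*. *Tpm4*, a tropomyosin and the most abundant gene of the list, measured 437.2 ± 10.8 FPKM with Wnt3a and 394.2 ± 17.4 with both (adjusted p = 0.0836), and it passed when replicate 1 of the combination was left out. *Tagln*, the actin-binding protein transgelin, measured 4.17 ± 0.951, 2.63 ± 0.383, 4.24 ± 0.786 and 2.47 ± 0.250 FPKM in control, menthol, Wnt3a and combination libraries (adjusted p = 0.204 and 0.0836), and passed in the second comparison with a replicate block. The summed smooth muscle markers, *Tagln* among them, ran from 20.7 to 23.2 FPKM in control, 18.3 to 19.4 with menthol, 21.2 to 23.8 with Wnt3a, and 19.1 to 20.3 in the combination group.

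Of 20 tested focal adhesion and actin crosslinking genes, 18 were lower with menthol than control (8 at an unadjusted p under 0.05, median −0.09), and 9 were lower and 11 higher with both agents against Wnt3a (median 0.02). *Flna* was closest to the threshold in the first comparison, with an adjusted p of 0.068, and passed when Wnt3a replicate 2 or 3 was left out of the fit. It was at 159.5 ± 8.83 FPKM with Wnt3a and 149.0 ± 4.10 with both (adjusted p = 0.268). Among 10 tenascins and other matricellular genes, 8 were lower with menthol than control and 6 were lower in the second comparison. *Thbs1*, thrombospondin-1 and the most abundant of them, measured 787.2 ± 27.6 FPKM in control and 700.2 ± 10.9 with menthol (log2 fold change −0.17, adjusted p = 0.126), and 593.9 ± 22.6 with Wnt3a and 590.2 ± 22.03 when menthol was added (−0.01, adjusted p = 0.936). The difference between these log2 fold changes was not tested.

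Procollagen processing and cross-linking genes, the family of *Pcolce*, were lower in 14 of 17 with menthol and in 11 of 17 with both agents against Wnt3a, with medians of −0.05 and −0.02. The most abundant, the protein disulfide isomerase *P4hb*, measured 385.6 ± 6.94, 369.8 ± 11.5, 377.7 ± 8.56 and 376.2 ± 11.6 FPKM in control, menthol, Wnt3a and both (adjusted p = 0.585 and 0.953). Only 2 of 15 small leucine-rich proteoglycans besides *Ogn* were tested. *Tsku* measured 26.1 ± 1.09, 25.5 ± 0.275, 26.3 ± 0.559 and 26.1 ± 1.13 FPKM (adjusted p = 0.866 and 0.934), and the other, *Bgn*, 7.22 ± 0.195, 6.04 ± 0.669, 6.06 ± 0.547 and 6.66 ± 1.24 (adjusted p = 0.505 and 0.661). The 6 genes of the CLIC and ezrin group were lower in 5 and 3 cases, with *Msn* (moesin) at 204.2 ± 1.97, 203.3 ± 2.95, 207.7 ± 2.39 and 205.1 ± 0.482 FPKM (adjusted p = 0.960 and 0.762). The 10 interleukin-33 and interleukin-1 receptor genes were lower in 6 cases each time, with the kinase gene *Irak1* at 40.2 ± 0.573, 39.4 ± 1.117, 40.2 ± 0.471 and 40.6 ± 1.19 FPKM (adjusted p = 0.846 and 0.913). The keratins *Krt8* and *Krt80*, the 2 of 9 that were tested, passed in neither comparison (adjusted p from 0.762 to 0.997).

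**Figure D3:**
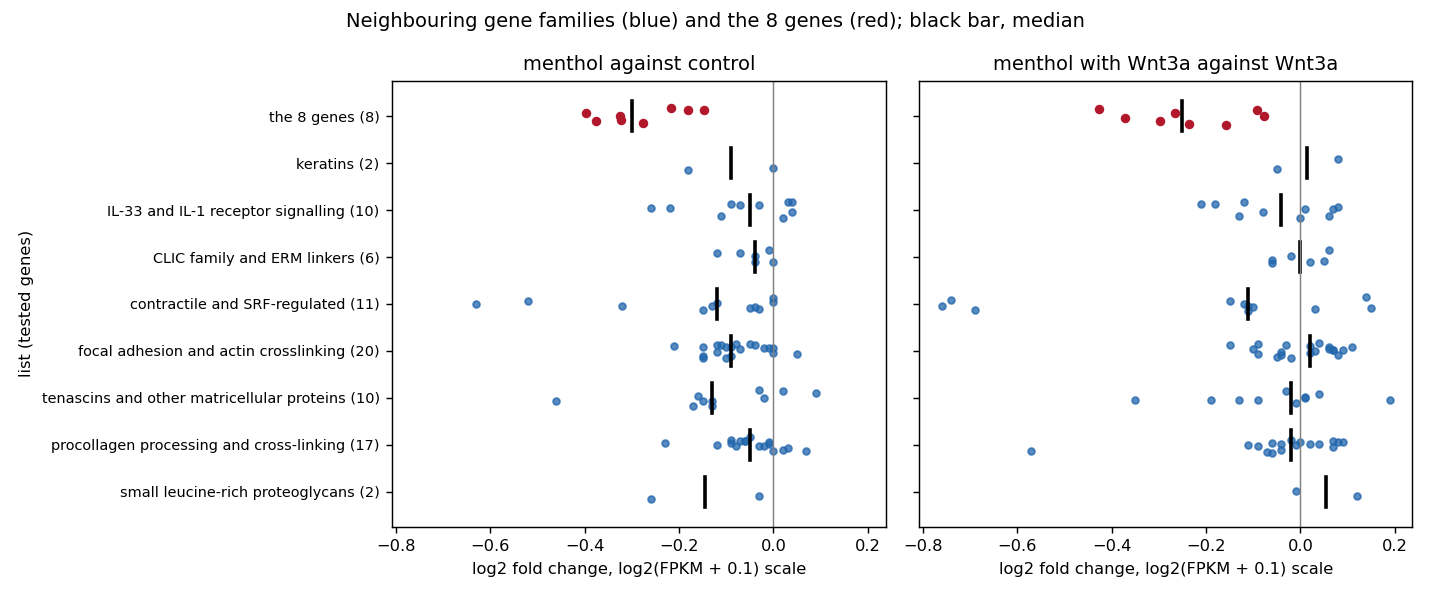
Log2 fold change on the log2(FPKM + 0.1) scale (horizontal axes) of the tested genes of each list (rows, blue) and of the 8 genes (top row, red), for menthol against control at the left and both agents against Wnt3a at the right, with black bars for medians. The red points lie below 0 in both panels (medians −0.30 and −0.25), while the family medians lie between −0.144 and −0.04 at the left and between −0.113 and 0.055 at the right.

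The 8 genes were also compared with each other over the 12 libraries, as a description, since the groups they were chosen on are shared. Pearson's r of log2(FPKM + 0.1) was above 0 in 28 of 28 pairs, with a median of 0.82 and a range from 0.54 (*Tnc* with *Krt7*) to 0.97 (*Actn1* with *Tnc*). Without the differences between groups, the median was 0.03, with 14 of 28 pairs above 0, from −0.82 (*Clic5* with *Krt7*) to 0.90 (*Actn1* with *Tnc*). With group means removed, *Actn1* and *Tnc* kept the highest r of any pair. The mean z-score of the 8 genes ran from 1.08 to 1.19 in control, 0.39 to 0.58 with Wnt3a, −0.86 to −0.51 with menthol and −1.04 to −0.81 in the combination group. Outside the set, the genes whose levels followed this score most closely were *Cald1*, the actin-binding caldesmon (r = 0.955), *Cnn2*, a calponin (0.952), and *Tmtc4*, a transmembrane mannosyltransferase of the endoplasmic reticulum (0.951). *Cald1* measured 94.0 ± 1.11, 86.5 ± 0.928, 93.1 ± 1.72 and 86.6 ± 0.0477 FPKM in control, menthol, Wnt3a and combination libraries. *Cnn2* measured 214.0 ± 5.55, 192.6 ± 3.93, 202.2 ± 5.24 and 187.0 ± 2.99 FPKM, and *Tmtc4* 13.6 ± 0.199, 11.7 ± 0.425, 12.7 ± 0.214 and 11.5 ± 0.492, in the same order.

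**Figure D4:**
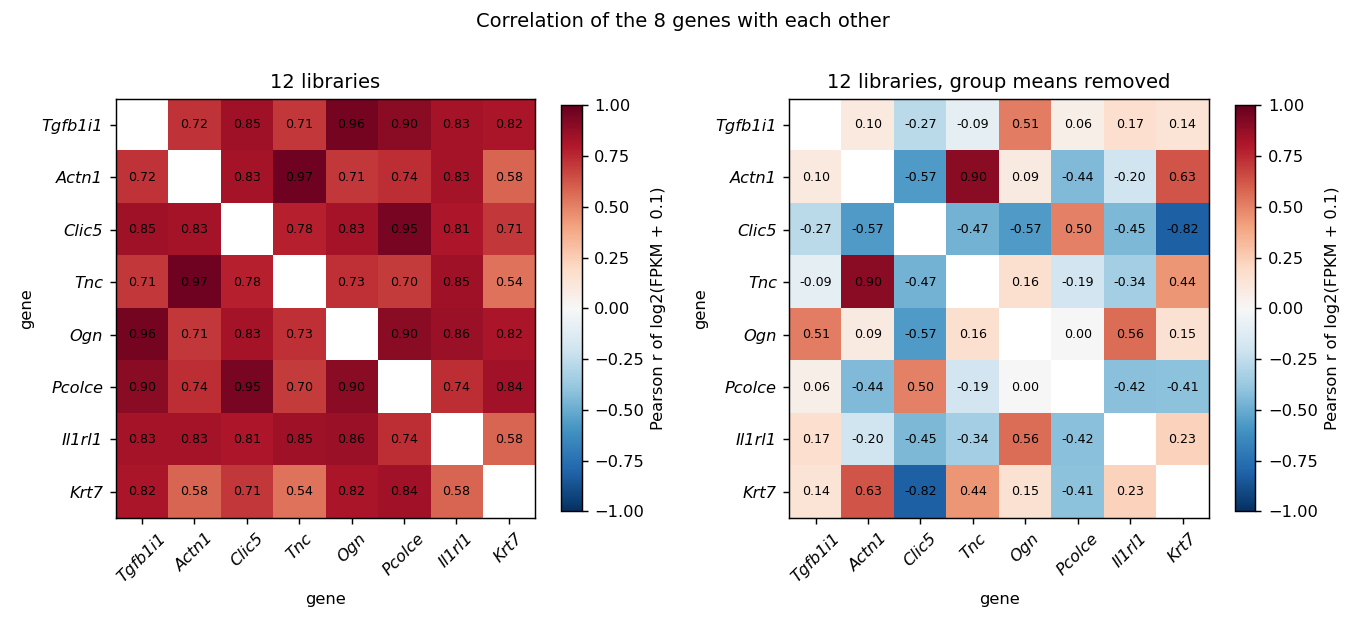
Pearson's r between the 8 genes (rows and columns, color scale from −1 to 1) over 12 libraries, of log2(FPKM + 0.1) at the left and after the group means were removed at the right. All 28 pairs are above 0 at the left, against 14 of 28 at the right, where *Actn1* with *Tnc* (0.90) and *Clic5* with *Krt7* (−0.82) are the extremes.

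Pooled over the groups, the spread between libraries was larger than counting error for each gene, though within single groups it could be smaller, as for *Krt7* with Wnt3a (1.27%) and *Ogn* with both agents (1.24%). The pooled coefficient of variation was 5.83% for *Krt7*, 5.69% for *Tnc*, 5.08% for *Tgfb1i1*, 4.46% for *Ogn*, 3.33% for *Il1rl1*, 2.39% for *Clic5*, 1.97% for *Actn1* and 1.04% for *Pcolce*. Counting alone gives 3.06% for *Krt7*, 2.62% for *Ogn* and 0.436% for *Il1rl1*, the gene with the most reads. Counting error covers reads and not molecules, since the libraries carried no stated molecular identifiers.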

How the data were processed

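RNA of ND7/23 cells was sequenced in 12 libraries, and groups and replicate numbers were taken from the sample labels. The authors extracted RNA with TRIzol, used the VAHTS Universal V6 kit, cleaned reads with fastp, mapped to a reference genome with HISAT, counted reads per gene with HTSeq-count and deposited FPKM. The submitters' processing notes name mRatBN7.2. How reads from mouse transcripts were assigned, and whether strand was used, is not given in the sources used here, so overlapping antisense transcripts cannot be told apart. FPKM is relative to all mapped fragments. The KEGG and GO columns were not used.

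FPKM + 0.1 was log2-transformed, genes averaging at least 0.5 FPKM were kept (11451), and limma (version 3.58.1, R 4.3.3) was run with a variance trend on all 4 groups in 1 fit, with Benjamini-Hochberg adjustment over these genes and a threshold of 0.05 without a fold minimum, because the genes lie under 2-fold. Folds on this scale slightly understate the change of low genes. Whole reads, recovered from the FPKM steps for 21556 of 21556 genes, were used for counting error and for limma voom. For 1804 genes above 0 in 1 library the count rests on 1 value. No pair of libraries within a group was alike within sampling noise (chi-square per degree of freedom 3.53 to 7.61). Scripts were tested on simulated data. The 8 genes, the lists and the tests were chosen with earlier results of these data known. Genes were named as follows: the 8 genes, the most abundant gene of each family list, family genes that passed, the most abundant markers and the 3 genes most correlated with the 8. Others named, such as *Flna*, *Tagln*, *Bgn*, *Il33* and *Il1rap*, were chosen after their values were seen. Alternatives were other pseudocounts and FPKM minimums, median centring, fits of 2 groups, a replicate block, voom, a 2-fold minimum and leaving out each library. Some listed marker genes are not reported here.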

Additional observations from a re-analysis of the deposited data

How the results depend on the processing

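For both agents against Wnt3a, 6 genes were called and 3 of the 8. With no FPKM minimum, with only the 2 groups compared and with a 2-fold minimum, 0 genes and 0 of the 8 were called, the adjusted p being 0.0771 for *Tgfb1i1*, *Ogn* and *Il1rl1* without the FPKM minimum. Limma voom on recovered reads called 143 genes, only 50 of them lower, with 6 of the 8 among those 50 (*Clic5*, *Krt7* and *Tnc* added). Leaving out 1 library gave 0 to 38 genes and 0 to 3 of the 8: 0 without Wnt3a replicate 1 or 2, 38 without Wnt3a replicate 3, and 11 without menthol replicate 1, while *Ogn* alone was lost without replicate 2 (adjusted p = 0.0528) or 3 (0.0652) of the combination. Of family genes in menthol against control, 0 were called, 6 with voom (*Cald1*, *Cnn2*, *Flna*, *Sparc*, *Thbs1* and *Vcl*) and 0 to 1 on leaving out a library (*Flna*, without Wnt3a replicate 2 or 3). Of family genes with both agents against Wnt3a, 0 were called, 2 with voom (*Tagln* and *Tpm4*) and 1 (*Tpm4*) without replicate 1 of the combination. Apart from the replicate block, given next, the other alternatives left these counts within 1.5 times, and no log2 fold change of the 8 turned in any alternative. The cause of these shifts was not tested. The 8 genes lie under the 2-fold minimum and could not meet it.

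Groups share replicate numbers, but same-numbered libraries deviated together only weakly (correlations from −0.055 to 0.153), so the numbers are not a pairing by design. With a replicate block 24 genes were called and 4 of the 8, *Tnc* added (adjusted p = 0.0455), and 3 family genes (*Cnn2*, *Flna* and *Sparc*) in menthol against control and 1 (*Tagln*) with both agents against Wnt3a.

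Counting error was 0.436 to 3.06% per library for the 8 genes, smaller than the difference of each (5.24 to 25.7%). Each group held 3 libraries, and what limits these calls was not tested.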
